A study of Mus musculus with 78 samples.

Results

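The comparison set soleus libraries of mice labelled 12 months and F against soleus libraries of mice labelled 6 months and F. Members were chosen by the library names alone, and 11 of the 78 libraries of the series belong to it, 7 at 12 months and 4 at 6 months. A pair of 12-month libraries carries the same animal tag and was summed, which left 10 of 77 replicates, 6 at 12 months and 4 at 6 months. All were C57Bl/6 mice on control feed (Teklad 2918) from one supplier, Invivos in Singapore, in labelled batch 1, and received no compound. The design text does not say whether the ages are those at arrival or at tissue collection. RNA came from whole soleus, so fewer cells of a type and less RNA per cell cannot be told apart. The same contrast in M libraries, with 6 replicates at 12 months and 6 at 6 months, served as the nearest comparison.

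Soleus is a postural calf muscle built mainly of slow and fast oxidative fibres, with few glycolytic fibres. Fibres break glycogen down with muscle glycogen phosphorylase, which phosphorylase kinase switches on. They also hold most of the tissue's mitochondria and turn over their proteins through the ubiquitin and proteasome system. The fibres are long and multinucleate, and RNA of nerve, fat, vessel and skin in a dissected muscle comes from other cells. Its amount can vary with the dissection, which was not tested here.

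Several libraries went against their label or stood apart, and the main results are also given without them. Xist, the noncoding RNA of the inactive X chromosome, lay between 42.4 and 90.9 CPM (counts scaled to 1e+06 per library with TMM factors) in 7 of the 10 replicates and at or near 0 in the other 3. Those 3, replicates 1 and 4 at 12 months and replicate 3 at 6 months, held 73.7, 41.7 and 51.7 CPM of the Y-linked helicase gene Ddx3y, which was at 0 CPM in the other 7. Replicate 4 at 12 months had 46.5% of its counts on the mitochondrial genome. Its TMM factor was 0.403, the lowest at 12 months, against 0.884 to 1.033 at 6 months. All its CPM are therefore scaled up, and its mitochondrial mRNAs summed to 1093000 CPM. Replicate 5 at 12 months had a summed level of 12 keratinocyte markers of 3433 CPM. Replicate 4 at 6 months had the highest summed level, 32570 CPM, of 8 fast fibre markers. That list is named fast 2B here, though not all of its genes are particular to 2B fibres. The slow fibre markers of soleus were high in every replicate, with sums of 23060 to 56430 CPM at 12 months and 31260 to 52400 CPM at 6 months. Depth, in units of 1e+06 counts, was 27.3 to 112.4 per replicate at 12 months and 19.5 to 77.6 at 6 months.

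**Figure D1:**
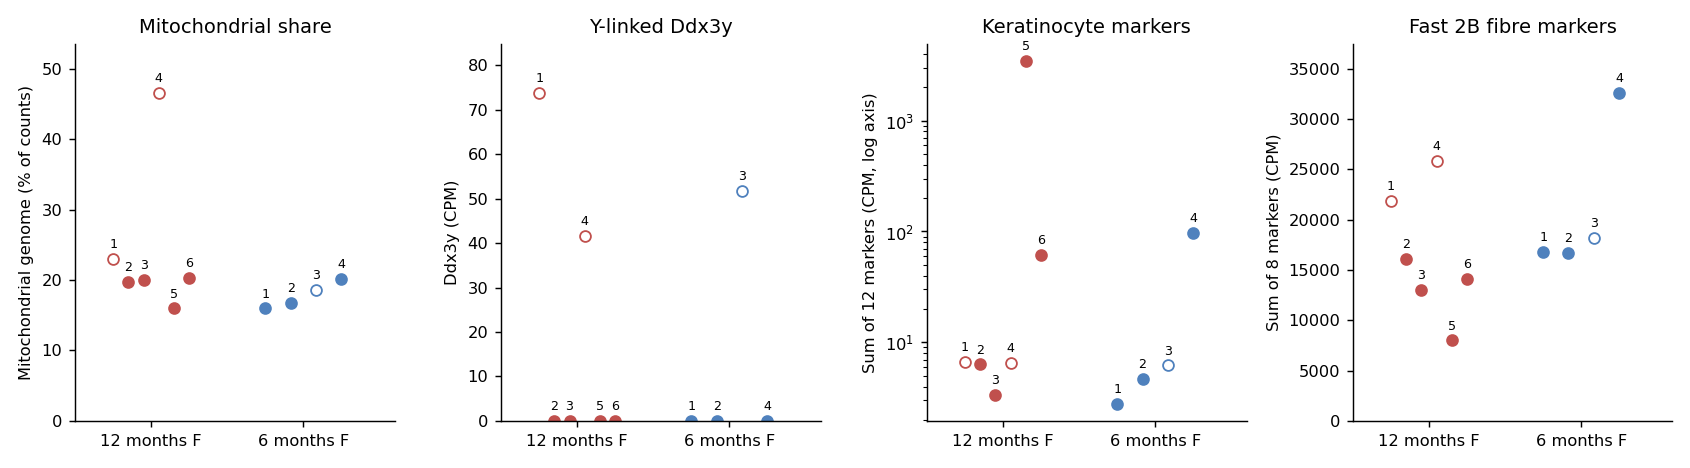
Each point is 1 replicate, numbered, at 12 months (left, red) and 6 months (right, blue) of the F label; open points are the 3 replicates with Y transcripts. The panels show the mitochondrial share of counts in percent, Ddx3y in CPM, the summed keratinocyte markers in CPM on a log axis and the summed fast 2B markers in CPM. Replicate 4 at 12 months stands at 46.5%, replicate 5 at 12 months at 3433 CPM and replicate 4 at 6 months at 32570 CPM.

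Few genes passed the test between 12 and 6 months in F libraries. In edgeR's quasi-likelihood test, 7 of 18218 genes rose at an adjusted p under 0.05 (0.0384%) and 35 fell (0.192%). The split between rises and falls depended on the method: DESeq2 called 54 higher and 53 lower, limma-voom with quality weights 196 higher and 194 lower, and the fit with length and GC offsets 10 higher and 4 lower. At an unadjusted p under 0.05, 1231 genes were higher (6.76%) and 1416 lower (7.77%). Of all genes tested, 76 had every 12-month replicate below every 6-month replicate (0.417%) and 39 had every one above (0.214%), and 10 of the 42 called genes were among them. Leaving out the 3 libraries against their label, all 42 kept their sign, as did 84% of all genes tested. Both fits share 7 F replicates, so a kept sign is no separate support. The fit without the 3 libraries called 1 gene higher (0.00535%) and 11 lower (0.0588%) of 18698. At an unadjusted p under 0.05 it held 969 higher (5.18%) and 1274 lower (6.81%). Of the 35 genes that fell, 8 (22.9%) were among those 11 (72.7%). A fit to the compared groups alone called 0 genes in edgeR's test, with 383 at an unadjusted p under 0.05, and a fit without the 5 libraries that stand apart also called 0, with 1364.

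**Figure D2:**
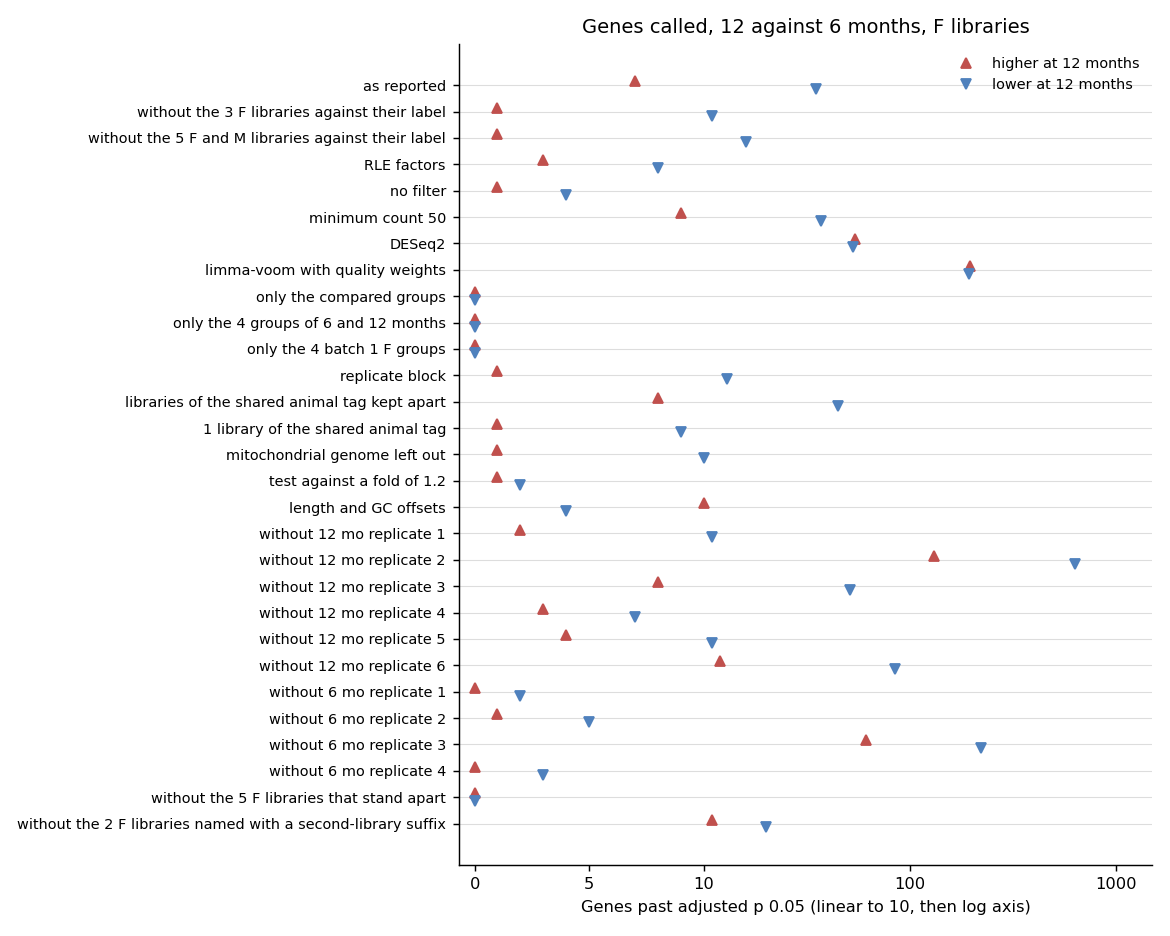
Number of genes past adjusted p 0.05 in F libraries, higher at 12 months (red triangles) and lower at 12 months (blue triangles), for each way of fitting the data; the axis is linear to 10 and logarithmic beyond. Counts were 7 higher and 35 lower as reported, 131 and 630 without replicate 2 at 12 months, and 0 in both directions in 4 fits.

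Smarcal1 had the clearest difference. It encodes an annealing helicase of the SNF2 family that remodels stalled DNA replication forks, and lies at chr1:72583251-72633134 on the plus strand of mm10 (GENCODE M21). Its level was 11.9, 16.1, 11.9, 12.1, 11.4 and 14.7 CPM in the 12-month replicates, against 21.3, 20.0, 17.7 and 20.1 CPM in the 6-month replicates. All 12-month values were lower than all 6-month values, so the groups did not overlap. Smarcal1 fell by 0.60 on the log2 scale (SE 0.11, adjusted p = 0.00698, edgeR). Without the 3 libraries the log2 fold change was -0.61 (SE 0.13, adjusted p = 0.0311). It was the 1 gene of the 42 that stayed past the threshold when each of the 10 replicates was left out in turn, with log2 fold changes of -0.68 to -0.56. In the fit to the compared groups alone its log2 fold change was -0.59 with an adjusted p of 0.997, without the 5 libraries that stand apart it was -0.55 with 0.375, and with offsets for transcript length and GC content it was -0.43 with 0.125. Across the ages of F libraries Smarcal1 averaged 19.8 ± 1.52 CPM at 6 months (SD, n = 4), 13.0 ± 1.89 CPM at 12 months, 21.3 ± 1.601 CPM at 20 months and 20.2 ± 2.06 CPM at 28 months (SD, n = 6 each). The design text gives another supplier for the 20-month mice.

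The sequences before the starts of Smarcal1, of the glycogen phosphorylase gene Pygm and of the phosphorylase kinase gene Phkb are shown because these genes carry the falls described here. Each runs 5′ to 3′ over the 250 bases before the RefSeq start on the plus strand of GRCm38, the build that mm10 names, at chr1:72583001-72583250, chr19:6384158-6384407 and chr8:85840738-85840987. Capitals mark E-boxes (CANNTG), CCAAT boxes (CCAAT) and GC boxes (GGGCGG) read on both strands, and none overlaps another motif.
Smarcal1: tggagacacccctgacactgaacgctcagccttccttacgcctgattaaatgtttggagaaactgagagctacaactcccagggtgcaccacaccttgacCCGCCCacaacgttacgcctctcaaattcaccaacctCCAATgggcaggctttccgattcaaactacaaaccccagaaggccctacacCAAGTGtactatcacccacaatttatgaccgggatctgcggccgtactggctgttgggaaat
Pygm: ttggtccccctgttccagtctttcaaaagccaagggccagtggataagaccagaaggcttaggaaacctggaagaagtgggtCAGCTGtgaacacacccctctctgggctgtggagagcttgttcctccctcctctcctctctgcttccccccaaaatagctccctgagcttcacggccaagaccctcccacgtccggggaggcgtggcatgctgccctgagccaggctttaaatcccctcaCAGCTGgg
Phkb: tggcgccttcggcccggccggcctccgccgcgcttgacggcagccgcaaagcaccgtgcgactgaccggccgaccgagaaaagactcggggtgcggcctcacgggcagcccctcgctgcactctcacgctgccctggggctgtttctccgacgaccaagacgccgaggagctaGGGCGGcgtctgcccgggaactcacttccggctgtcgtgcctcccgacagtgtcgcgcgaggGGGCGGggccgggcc
The Smarcal1 sequence held 1 of each motif, the Pygm sequence 2 E-boxes, and the Phkb sequence 2 GC boxes. Of 32851 RefSeq promoters cut to the same length, 66.2% held an E-box, 33.8% a CCAAT box and 32.7% a GC box.

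Of the genes of glycogen breakdown, Pygm and Phkb fell at 12 months. Pygm, which encodes muscle glycogen phosphorylase, had 541 to 1343 CPM at 12 months (median 1000.1), against 1812, 1420, 1248 and 2344 CPM at 6 months. The 2 highest 12-month replicates, 1 and 2, overlapped the lowest 6-month replicate. Pygm fell by 0.78 on the log2 scale (SE 0.19, adjusted p = 0.0465), and without the 3 libraries by 1.03 (SE 0.22, adjusted p = 0.036). Phkb, the beta subunit of phosphorylase kinase, had 43.5 to 81.7 CPM at 12 months (median 63.0), against 100.2, 84.1, 70.8 and 148.1 CPM at 6 months. Replicate 2 at 12 months lay above replicate 3 at 6 months, and no other pair overlapped. Phkb fell by 0.66 (SE 0.16, adjusted p = 0.0491), and its log2 fold change without the 3 libraries was -0.80 (adjusted p = 0.069).

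The rest of glycolysis lay on the same side of 0 without passing the test. All 25 genes of glycolysis and glycogen metabolism had negative log2 fold changes, with a median of -0.25, where the median over all genes was 0.00. Pygm was the only one past the threshold, and 10 of the 25 were lower at an unadjusted p under 0.05, against 7.77% of all genes. Without replicate 2 at 12 months 8 fell, where 630 of all 18205 genes fell. Without replicate 3 at 6 months 7 fell, where 222 of all 18724 genes fell. Pfkm, muscle phosphofructokinase, had 526 to 1187 CPM at 12 months (median 828), against 1369, 1150, 1041 and 1524 CPM at 6 months. Replicates 1 and 2 at 12 months reached into the 6-month range, and the change of Pfkm was -0.55 on the log2 scale (SE 0.14, adjusted p = 0.0576). Those for Pkm, pyruvate kinase, were -0.52 (adjusted p = 0.0804) and for Pgm1, phosphoglucomutase, -0.55 (adjusted p = 0.0896). Without the 3 libraries the list median was -0.50, with 15 of 25 at an unadjusted p under 0.05, and without the 5 that stand apart it was -0.16, with 3 of 25.

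Fast fibre markers are set beside these genes here. The 8 markers of the list named fast 2B summed to 8003 to 25870 CPM at 12 months, against 16660 to 32570 CPM at 6 months. They include genes of fast fibres in general, so their sum does not measure 2B fibres alone. Their median log2 fold change was -1.11, or -2.05 without the 3 libraries. Myh4, the 2B myosin heavy chain, was 404, 11.4, 8.4, 70.3, 23.1 and 72.03 CPM at 12 months, against 12.4, 598, 10.5 and 6152 CPM at 6 months. Replicate 4 at 6 months was far above the others, and the groups overlapped. The log2 fold change of Myh4 was -4.11 (SE 1.63, adjusted p = 0.247). Without that replicate the median of the 8 markers was -0.21 and that of the 25 glycolysis genes -0.20, and the log2 fold changes of Pygm and Phkb were -0.59 (adjusted p = 0.318) and -0.41 (adjusted p = 0.392). Among the replicates without Y transcripts, those with a higher marker sum also had more Pygm at each age. Replicates with Y transcripts left that order. Replicate 4 at 12 months had the highest sum of its age, 25870 CPM, with 1021 CPM of Pygm. Both values are scaled up by its TMM factor of 0.403. Replicate 3 at 6 months had the second highest of its age, 18180 CPM, with the lowest 6-month Pygm, 1248 CPM. The part of fibre type in the fall of Pygm and Phkb was not tested. The slow myosin Myh7 (log2 fold change -0.50, adjusted p = 0.453), the 2A myosin Myh2 (-0.24, 0.685) and the 2X myosin Myh1 (-0.96, 0.306) did not pass.

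Gpd2, the mitochondrial glycerol-3-phosphate dehydrogenase that hands cytosolic reducing equivalents to the respiratory chain, was 8.5 to 16.1 CPM at 12 months (median 9.4), against 15.2, 11.7, 10.9 and 57.5 CPM at 6 months. It fell by 1.17 on the log2 scale (SE 0.28, adjusted p = 0.0465), and by 1.62 without the 3 libraries (adjusted p = 0.0241). Replicate 4 at 6 months held the highest value by far, and without it the log2 fold change was -0.26 (adjusted p = 0.74). Rasd2, a Ras-family GTP-binding protein gene, was 0.16 to 2.27 CPM at 12 months (median 1.81), against 1.42, 2.29, 6.62 and 22.1 CPM at 6 months. It fell by 2.31 (SE 0.56, adjusted p = 0.0465), and without that same replicate the log2 fold change was -1.10 (adjusted p = 0.463). It was -2.44 without the 3 libraries (adjusted p = 0.132).

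**Figure D3:**
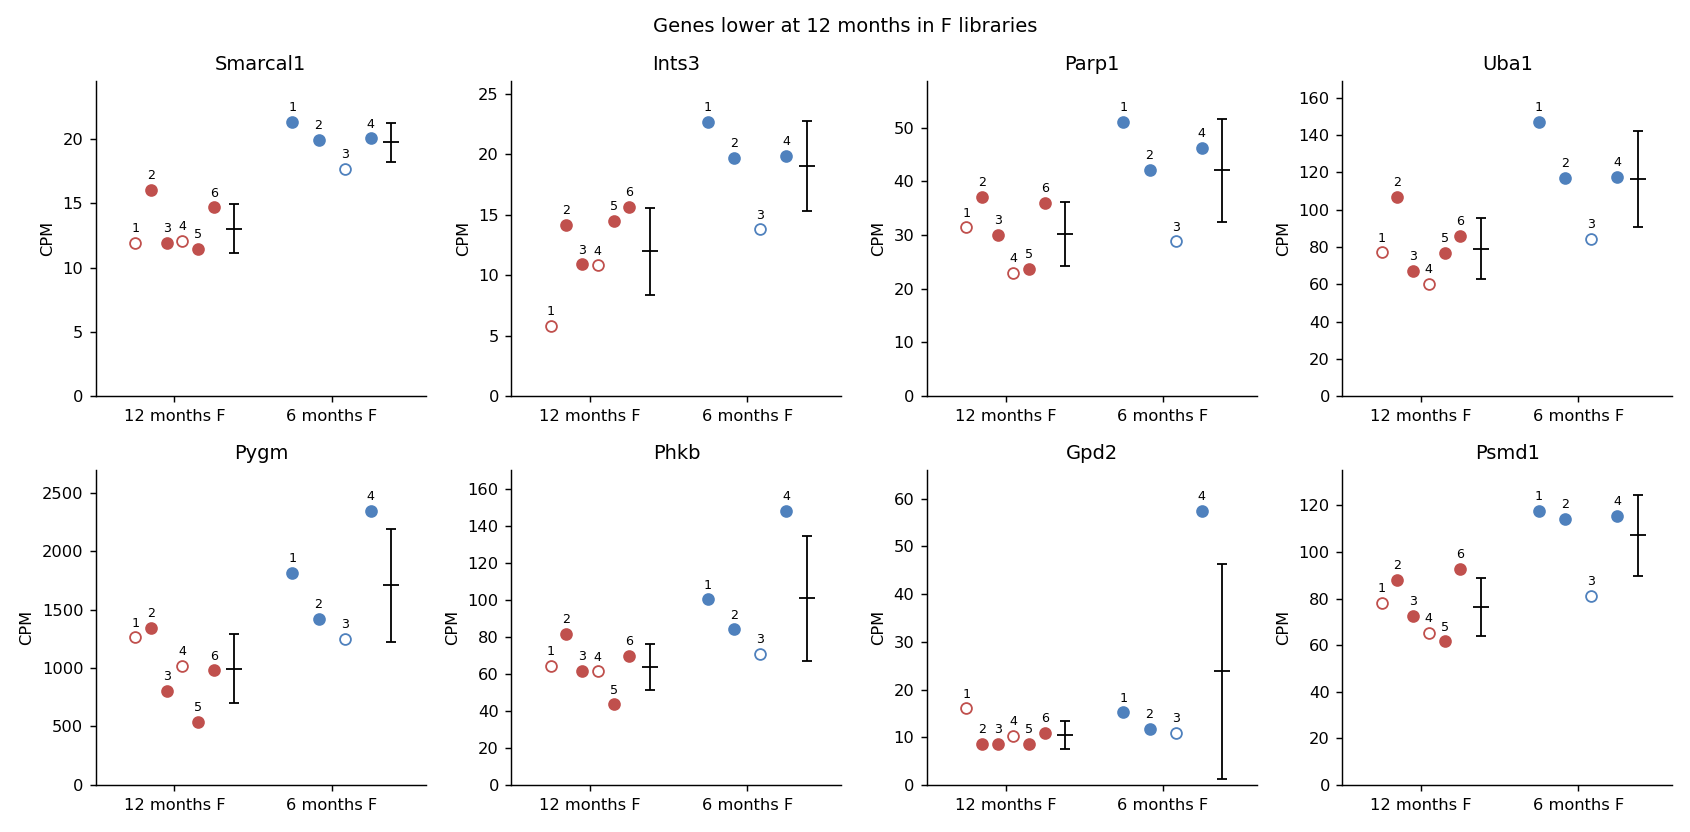
CPM of 8 genes that fell, per replicate at 12 months (left, red) and 6 months (right, blue); open points are the 3 replicates with Y transcripts, and bars are mean ± SD. Smarcal1 lies between 11.4 and 16.1 CPM at 12 months, below all 6-month values, while Gpd2 has 1 replicate at 57.5 CPM at 6 months.

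Other single genes that fell are given with their known roles, which were not tested as groups. Ints3, a subunit of the Integrator complex that trims small nuclear RNAs, was 5.8 to 15.7 CPM at 12 months (median 12.5), against 22.7, 19.7, 13.8 and 19.9 CPM at 6 months. The overlap lay with replicate 3 at 6 months, one of the libraries with Y transcripts. Ints3 fell by 0.66 on the log2 scale (SE 0.14, adjusted p = 0.0147), and by 0.60 without the 3 libraries (adjusted p = 0.0288).

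Parp1, the poly(ADP-ribose) polymerase that marks DNA breaks, was 23 to 37.1 CPM at 12 months (median 30.7), against 51.01, 42.1, 28.8 and 46.2 CPM at 6 months. It fell by 0.47 (SE 0.11, adjusted p = 0.0441), and by 0.56 without the 3 libraries (adjusted p = 0.0288). As with Ints3, the replicate at 28.8 CPM is replicate 3 at 6 months, and the other 6-month replicates lay above all of the 12-month replicates.

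Uba1, the main ubiquitin-activating enzyme and an X-linked gene, was 60.1 to 106.8 CPM at 12 months (median 76.96), against 146.9, 117.0, 84.5 and 117.5 CPM at 6 months. Uba1 fell by 0.56 (SE 0.11, adjusted p = 0.0147), and by 0.61 without the 3 libraries (adjusted p = 0.0311). Usp19, a deubiquitinase, averaged 76.9 ± 15.99 CPM at 12 months (SD, n = 6), with a highest value of 94.3 CPM, and 107.8 ± 12.97 CPM at 6 months (SD, n = 4), with a lowest of 93.6 CPM. It fell by 0.49 (SE 0.11, adjusted p = 0.0282) and by 0.52 without the 3 libraries (adjusted p = 0.036). Psmd1, the scaffold subunit of the proteasome's regulatory particle, was 61.6 to 92.6 CPM at 12 months (median 75.5), against 117.7, 114.4, 81.1 and 115.4 CPM at 6 months. In all of these the lowest 6-month value was again that of replicate 3. Psmd1 fell by 0.49 (SE 0.12, adjusted p = 0.0465), and its log2 fold change without the 3 libraries was -0.57 (adjusted p = 0.0666). It was the 1 proteasome gene of 32 past the threshold. Among all 32, 15 had positive log2 fold changes, and the list median was -0.02.

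Further falls without overlap are given here although they were chosen after their values were seen. Ppp2r1a, the scaffold subunit of protein phosphatase PP2A, was 71.9 to 105.0 CPM at 12 months (median 91.8), against 119.8, 124.2, 115.0 and 105.5 CPM at 6 months. It fell by 0.37 on the log2 scale (SE 0.07, adjusted p = 0.00728). Trappc9, a subunit of a membrane tethering complex, was 22.3 to 34.5 CPM at 12 months (median 27.5), against 41.5, 38.0, 37.9 and 39.5 CPM at 6 months. It fell by 0.50 (SE 0.10, adjusted p = 0.0174). Kbtbd4, an adaptor of a cullin ubiquitin ligase, was 10.4 to 16.9 CPM at 12 months (median 13.2), against 21.2, 17.8, 17.8 and 20.2 CPM at 6 months, and fell by 0.53 (SE 0.12, adjusted p = 0.0441). Their log2 fold changes without the 3 libraries were -0.32 for Ppp2r1a, -0.44 for Trappc9 and -0.54 for Kbtbd4, and none passed (adjusted p = 0.0966, 0.128 and 0.0966). Mapk14, the stress kinase p38 alpha, fell by 0.56 (SE 0.12, adjusted p = 0.0337) with 40.6 to 83.5 CPM at 12 months, against 101.3, 79.6, 77.1 and 99.7 CPM at 6 months, where 1 12-month replicate overlapped. Its log2 fold change without the 3 libraries was -0.58 (adjusted p = 0.0966).

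The remaining falls by the naming rule were smaller in expression. Gse1 was 0 to 5.70 CPM at 12 months, against 7.44, 9.92, 8.39 and 9.78 CPM at 6 months, without overlap, and fell by 1.39 (adjusted p = 0.0465). Mbtps2, the site-2 protease that releases membrane-bound transcription factors, fell by 0.79, and Tti1, a partner of the PI3K-like kinases, by 0.69 (adjusted p = 0.0465 and 0.0337). Mettl13, a methyltransferase of elongation factor eEF1A, fell by 0.67, Gcc1, a golgin, by 0.64 (adjusted p = 0.0465 each) and Prpf4, a protein of the U4/U6 spliceosome particle, by 0.64 (adjusted p = 0.0212). These 6 did not pass without the 3 libraries. Pakap was at 0 CPM in every 12-month replicate, against 3.32, 0.83, 0.12 and 1.11 CPM at 6 months, so that it was at least 108-fold lower against a floor of 3 counts over the 12-month group (adjusted p = 0.00698). Pakap overlaps Akap2 on the same strand, so the split of reads between them is uncertain. Akap2 averaged 14.8 ± 6.42 CPM at 12 months (SD, n = 6) and 16.1 ± 5.68 CPM at 6 months (SD, n = 4).

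Of the 7 genes that rose, 3 met the naming rule. Trmt2a, a tRNA methyltransferase gene, was 12.9 to 24.6 CPM at 12 months (median 15.8), against 10.6, 12.5, 13.0 and 13.0 CPM at 6 months, with overlap between the lowest 12-month replicate and the highest at 6 months, and it rose by 0.48 (SE 0.11, adjusted p = 0.0465). Rps27rt, a retrogene copy of the ribosomal protein gene Rps27, rose by 1.23 (adjusted p = 0.0465). The split of reads between Rps27rt and Rps27 is uncertain. mt-Rnr1, the mitochondrial 12S ribosomal RNA, rose by 2.02 (SE 0.46, adjusted p = 0.0441), with 32380 CPM in replicate 4 at 12 months and 1294 to 2925 CPM in the other 5, against 889 to 2706 CPM at 6 months. Without that replicate its log2 fold change was 0.32 (adjusted p = 0.689), and without the 3 libraries 0.47 (adjusted p = 0.555). The other 4 genes that rose were low: Mlph, Prrg4 and Sytl3 had means under 1 CPM in both groups, and Gm4285 is an antisense RNA whose reads cannot be told from those of its partner where the strand is unknown. Mlph, a linker of melanosomes to myosin, was 0.23 to 2.29 CPM at 12 months, all above 0 to 0.10 CPM at 6 months.

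**Figure D4:**
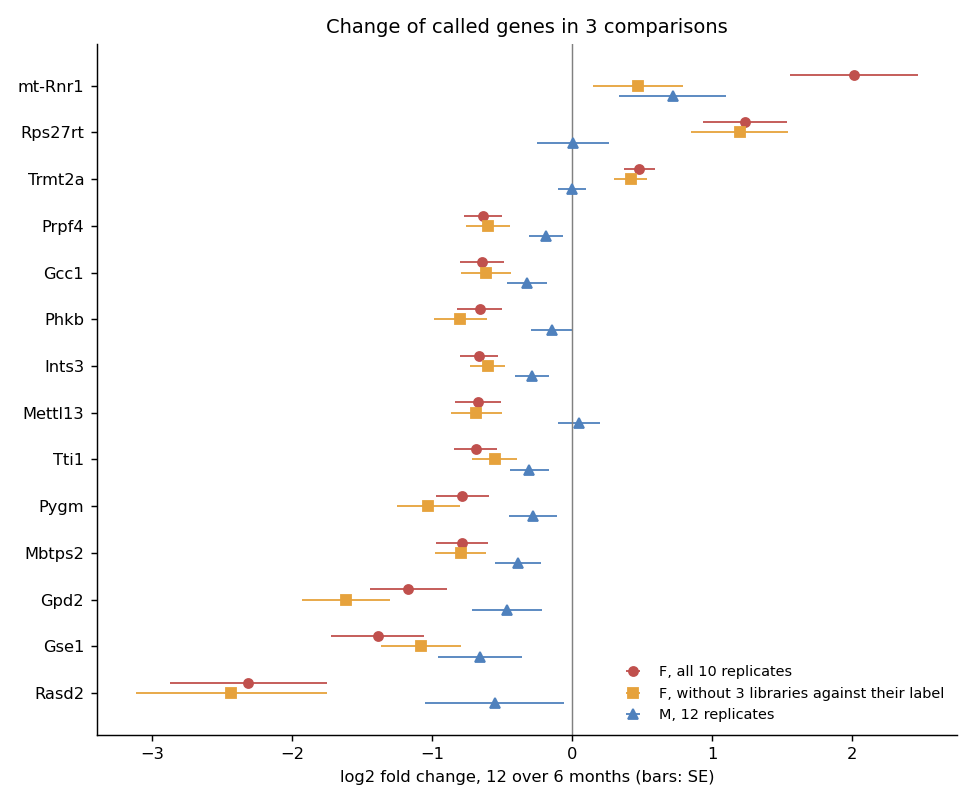
log2 fold changes of 12 over 6 months with their SE for 14 called genes named by the rule, in F libraries (red circles), F libraries without the 3 that carry Y transcripts (orange squares) and M libraries (blue triangles). mt-Rnr1 drops to 0.47 without the 3 libraries, while Rps27rt stays at 1.197; each M value lies nearer 0 than the value of all 10 F replicates.

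The share of counts on the mitochondrial genome was 23%, 19.7%, 20.0%, 46.5%, 16.0% and 20.3% at 12 months, against 16.0%, 16.8%, 18.6% and 20.2% at 6 months. The means were 24.3% ± 11.1 (SD, n = 6) and 17.9% ± 1.87 (SD, n = 4). The difference of 6.39 percentage points was within the spread between replicates (exact two-sided permutation test, p = 0.338, where 210 assignments allow no p below 0.00476). Without replicate 4 at 12 months it was 1.94 points. The 13 mitochondrial mRNAs, of subunits of the respiratory chain, had a median log2 fold change of 0.92, with none past the threshold. Against 6.76% of all genes, 12 of the 13 were higher at an unadjusted p under 0.05. That median was 0.12 without the same replicate and 0.09 without the 3 libraries.

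Ribosomal protein genes leaned upward. All 48 had positive log2 fold changes, with a median of 0.43, where 9173 of all 18218 genes were positive. Against 6.76% of all genes, 42 of the 48 were higher at an unadjusted p under 0.05. None of the 48 passed the adjusted threshold in edgeR's test. Their summed level was 17340 to 37260 CPM at 12 months (median 23660), against 13500 to 23440 CPM at 6 months, and replicate 4 at 12 months was again the highest. Its CPM are scaled up by its TMM factor of 0.403. Rpl30, of the large subunit, was 275, 222, 241, 399, 275 and 243 CPM at 12 months, against 164, 228, 205 and 188 CPM at 6 months (log2 fold change 0.49, SE 0.14, adjusted p = 0.125). Rps7, of the small subunit, had a change of 0.48 on the log2 scale (SE 0.15, adjusted p = 0.161). The list median was 0.36 without the 3 libraries, with 27 of 48 at an unadjusted p under 0.05, 0.27 without the 5 that stand apart, with 2 of 48, and 0.30 with the length and GC offsets. Without replicate 4 at 12 months alone the median was 0.27 and without replicate 1 at 6 months alone 0.28. Each time 6 of 48 had an unadjusted p under 0.05. Without replicate 2 at 12 months 12 of 48 rose, where 131 of all 18205 genes rose. In M libraries 15 of the 48 rose, against 3.02% of all genes, and the median was 0.38.

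The 55 nuclear genes of oxidative phosphorylation had a median of 0.32, with none past the threshold. At an unadjusted p under 0.05, 21 were higher and 2 lower, against 6.76% and 7.77% of all genes. Ndufa2, a subunit of complex I, had a log2 fold change of 0.59 (adjusted p = 0.21), and Sdha, the catalytic subunit of complex II, -0.35 (adjusted p = 0.234). Without the 3 libraries the median was 0.12, with 0 higher and 2 lower, and with the length and GC offsets it was 0.10, with 14 higher. Without replicate 4 at 12 months alone it was 0.10 and without replicate 1 at 6 months alone 0.21, with 0 higher each time. Without the 5 libraries that stand apart it was 0.23, with 0 higher and 0 lower. Ribosomal and respiratory subunit genes have short transcripts, with median lengths of 1107.5 and 1232 bases against 3079 over all genes.

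Structural genes of the fibre leaned the other way, and none passed the threshold. All 24 sarcomere genes had negative log2 fold changes (median -0.34), where 9007 of all 18218 genes were negative. Of the 24, 9 were lower at an unadjusted p under 0.05, against 7.77% of all genes. Myom2, an M-band protein gene, was 199.6, 193.1, 156.0, 78.6, 75.9 and 169.7 CPM at 12 months, against 353.6, 267.8, 109.6 and 330.1 CPM at 6 months (log2 fold change -0.87, SE 0.27, adjusted p = 0.159). Of 20 calcium handling genes 17 were negative (median -0.32), and 6 were lower at an unadjusted p under 0.05, against the same 7.77%. Casq1, the calcium store protein of the sarcoplasmic reticulum, had -0.58 (adjusted p = 0.163), and Ryr1, the release channel, -0.61 (adjusted p = 0.273). With the length and GC offsets the medians were -0.17 for the sarcomere genes and -0.10 for the calcium genes, with 2 of each at an unadjusted p under 0.05. They were, without the 3 libraries, -0.42, with 9 genes, and -0.31, with 8, and without the 5 that stand apart -0.19, with 1 gene, and -0.11, with 0.

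Single libraries also moved these lists. Without replicate 5 at 12 months the sarcomere median was -0.21, with 2 genes at an unadjusted p under 0.05, and the calcium median -0.18, with 2. Without replicate 2 at 12 months the sarcomere median was -0.57, with 17 such genes of which 6 fell, and the calcium median -0.41, with 11 of which 5 fell. In that fit 630 of all 18205 genes fell. Without replicate 4 at 12 months or replicate 1 at 6 months 3 and 4 sarcomere genes had such a p, and without replicate 1 or 4 at 6 months 3 and 2 calcium genes. Without replicate 3 at 6 months 1 gene of each list fell, where 222 of all 18724 genes fell.

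**Figure D5:**
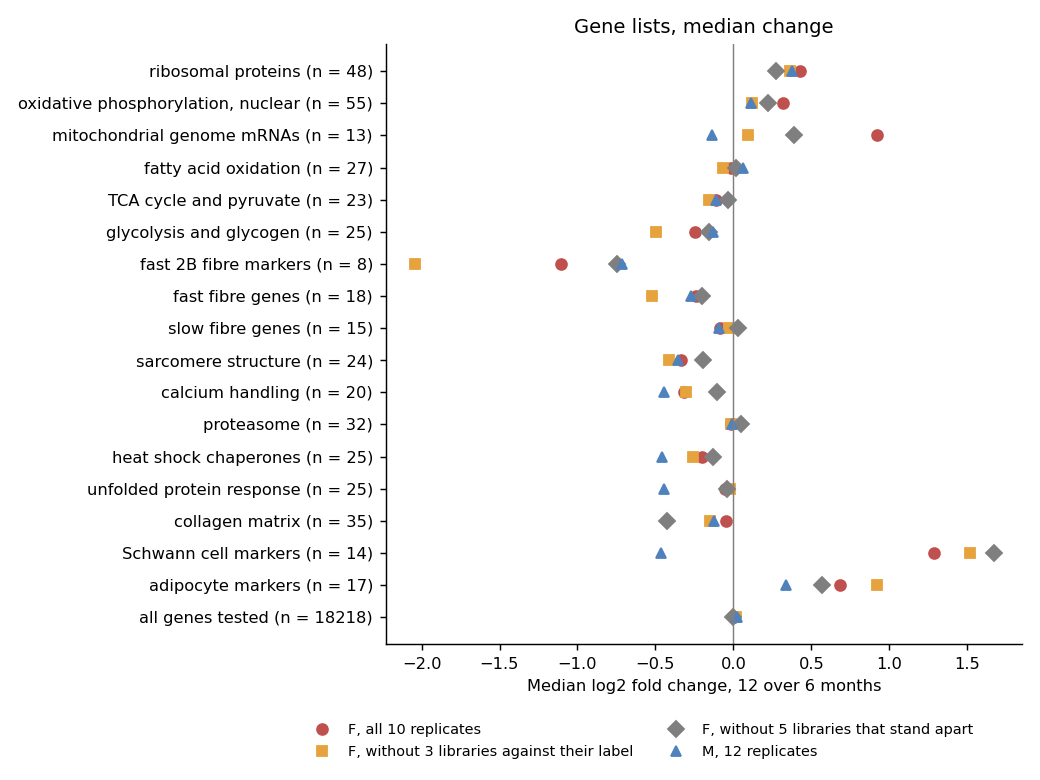
Median log2 fold change of 12 over 6 months for 17 gene lists and for all genes tested, in F libraries (red circles), F libraries without the 3 that carry Y transcripts (orange squares), F libraries without the 5 that stand apart (grey diamonds) and M libraries (blue triangles). Ribosomal protein genes stay above 0 in all 4 fits, between 0.27 and 0.43; mitochondrial mRNAs run from -0.14 to 0.92.

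Transcripts of other cell types differed between single libraries more than between ages. Of 14 Schwann cell markers 13 had positive log2 fold changes (median 1.29). Against 6.76% of all genes, 8 of these markers were higher at an unadjusted p under 0.05, and none passed the adjusted threshold. Their sum was 782, 736 and 390 CPM in replicates 3, 5 and 6 at 12 months and 156 to 164 CPM in the other 3, against 109 to 191 CPM at 6 months. Mbp, a myelin protein gene, had a change of 1.80 on the log2 scale (SE 0.73, adjusted p = 0.25). The M libraries had a median of -0.47 for the same markers. Adipocyte markers had a median of 0.68 over 17 genes, with 4 higher at an unadjusted p under 0.05. The medians without the 3 libraries were 1.52 for Schwann cell markers, with 9 higher, and 0.92 for adipocyte markers, with 6 higher, and without the 5 that stand apart 1.67, with 3 higher, and 0.57, with 0. Without replicate 3 at 12 months, or replicate 2 at 6 months, 2 Schwann cell markers were higher, and without replicate 5 at 12 months 3. The 12 keratinocyte markers had a median of 4.61, which was -0.29 without replicate 5 at 12 months and 8.37 without the 5 libraries that stand apart, where replicate 6 stays in.

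Other cell types and pathways gave few or no genes at an unadjusted p under 0.05, where 6.76% of all genes were higher and 7.77% lower. Among 15 macrophage markers 0 passed that level (median log2 fold change 0.23), among 17 endothelial markers 0 (median -0.21), among 14 fibroblast markers 2 were higher (median 0.24), and among 12 T and NK cell markers 3 were lower (median -0.39). Of 35 collagen and matrix genes 0 passed it (median -0.05), against a median of 0.00 over all genes. Fatty acid oxidation had 1 of 27 higher (median -0.02) and the TCA cycle and pyruvate list 1 of 23 higher and 4 lower (median -0.11). Autophagy and lysosome genes had 0 of 24 (median 0.07), FOXO and atrophy genes 2 of 25 lower (median -0.14), and p53 and senescence genes 0 of 20 (median -0.10). No gene of these lists passed the adjusted threshold in edgeR's test. Medians without the 3 libraries were 0.33 for macrophage markers, -0.16 for endothelial, 0.22 for fibroblast and -0.42 for T and NK cell markers and -0.15 for collagen and matrix genes. Without the 5 that stand apart those of macrophage and fibroblast markers were below 0, at -0.22 and -0.13, and that of collagen and matrix genes was -0.42. Of 14 tendon and cartilage markers 0 had an unadjusted p under 0.05 (median -0.425). Without replicate 5 at 12 months 8 were lower (median -1.39), where 2564 of all 18104 genes had such a p in either direction. Without the 5 that stand apart 8 were also lower (median -1.485), where 1364 of all 19386 genes had such a p.

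The nerve, fat and skin markers varied with the library names. Replicate 5 and one of the summed pair behind replicate 6 have names that end in the same suffix, and their rank correlation over 10811 genes was 0.963, against 0.934 between the members of the pair that share a tag. Krt5, a keratin of the epidermis, was 569 and 34.2 CPM in the libraries with the suffix and 0 CPM in the other library of the tag. Without the 2 libraries that have the suffix the median was 0.72 for Schwann cell markers and -0.03 for adipocyte markers. The fit without them called 11 genes higher and 20 lower, and 13 of the 42 genes passed in it. There 9 of 14 tendon and cartilage markers were lower at an unadjusted p under 0.05, and 1 of them passed the adjusted threshold. Of all 18103 genes, 2746 had such an unadjusted p in either direction.

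Without the 3 libraries against their label, 4 of the 12 called genes were not among the 42. Lmo1, a LIM-only transcription cofactor gene, rose by 2.16 on the log2 scale in that fit (SE 0.42, adjusted p = 0.0241). Over all replicates it was 1.69 to 10.5 CPM at 12 months, against 1.05, 1.63, 4.92 and 1.28 CPM at 6 months, where 4.92 CPM belongs to the library with Y transcripts (log2 fold change 1.41, adjusted p = 0.10). Tcof1, which encodes treacle of the nucleolus, fell by 0.66 and Pelp1, a nuclear receptor coregulator gene, by 0.70 in that fit (adjusted p = 0.036 each). Kbtbd2, an adaptor of a cullin ubiquitin ligase, fell by 0.51 (adjusted p = 0.036).

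The same ages differed by more genes in M libraries, where 551 rose (3.02%) and 1243 fell (6.82%). The M values here include the 2 M replicates against their label. Without these and the 3 such F libraries, 924 rose and 2257 fell of 18676 in M libraries. In a fit of only the 4 groups of 6 and 12 months 0 genes passed in F libraries in edgeR's test, with 1050 at an unadjusted p under 0.05, and 2 in M libraries, both lower, with 2617. Of the 35 genes that fell in F libraries 4 (11.4%) also fell in M libraries, namely Pakap, Scaf1, Fam160b2 and Hnrnpm, and none of the 7 that rose did so in M libraries. In all, 35 of the 42 called genes had the same sign in M libraries (83.3%), against 61.3% of all genes tested. Among the 2647 genes with an unadjusted p under 0.05 in F libraries, the share was 74.2%. Smarcal1 averaged 15.9 ± 2.32 CPM at 12 months and 16.6 ± 0.96 CPM at 6 months in M libraries (SD, n = 6 each), a change of -0.07 on the log2 scale (SE 0.10, adjusted p = 0.753). Among 25 heat shock chaperone genes 0 fell in F libraries and 14 in M libraries, and among 25 unfolded protein response genes 0 fell in F libraries and 12 in M libraries. No gene of either list passed the test of the difference between F and M libraries, and at an unadjusted p under 0.05 in F libraries 4 chaperone genes and 0 unfolded protein response genes were lower.

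Whether the change differs between F and M libraries was tested directly. No gene passed the threshold for the difference in edgeR's test, while 1870 had an unadjusted p under 0.05 (10.3%) and DESeq2 called 86. The difference for Smarcal1 was -0.54 on the log2 scale (p = 0.000446, adjusted p = 0.14). Of the 5 lowest p, with an adjusted p of 0.0972 each, Mfhas1 and Zfp383 were above 1 CPM in all 4 groups, as was the host transcript Mir22hg. Mfhas1 averaged 4.66 CPM at 12 months and 3.15 CPM at 6 months in F libraries, and 3.76 and 5.80 CPM in M libraries. Zfp383, a zinc finger gene, averaged 6.62 CPM at 12 months and 8.89 CPM at 6 months in F libraries, and 9.68 and 6.27 CPM in M libraries. Mir22hg, the host of miR-22, had a log2 fold change of -0.03 in F libraries and 1.14 in M libraries. The other 2, Tmem28 and 4930539E08Rik, averaged under 0.3 CPM in all 4 groups.

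Levels at the later ages of F libraries stand beside these, and the design text gives another supplier for the 20-month mice. Pygm averaged 1706 ± 486 CPM at 6 months (SD, n = 4), 992 ± 295 CPM at 12 months, 1584 ± 167 CPM at 20 months and 1980 ± 928 CPM at 28 months (SD, n = 6 each). Uba1 averaged 116.5 ± 25.5, 79.0 ± 16.3, 167.6 ± 8.65 and 140.9 ± 8.0 CPM at the same ages, in that order. Ints3 averaged 19.02 ± 3.74, 12.0 ± 3.61, 23.4 ± 1.68 and 21.4 ± 3.53 CPM. These genes were chosen for their fall at 12 months, so the low 12-month mean is not a finding, and the 28-month values are those of the 6 batch 1 replicates, without the 7 F replicates of batch 2. The 28 to 6 month and 20 to 6 month comparisons share the 6-month replicates with the one described here, and so these levels are not independent of it.

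The change also ran with transcript length. Across 17766 genes with a known length, Spearman's rho between the log2 fold change and the longest transcript was -0.262 in F libraries, -0.241 without the 3 libraries and -0.201 in M libraries; the genes share the same libraries and are not independent. The median length was 4337 bases for the genes that fell and 2423 bases for those that rose, against 3079 over all genes tested. With offsets for length and GC content the correlation was 0.011, and 10 genes rose and 4 fell, 7 of them among the 42. The part of length in the called genes was not tested.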

How the data were processed

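Bulk RNA of soleus was sequenced as paired reads on an Illumina NovaSeq 6000, per the labels' protocols. Reads were processed with FastQC, STAR 2.7.11b and RSEM 1.3.3 against mm10, per the submitters' processing notes; the sources used here give no annotation release, strand setting or filter. The deposited table holds the authors' expected counts of 36904 gene IDs, and 35338 of these were placed with GENCODE M21. Its other 55 columns, tied to no sample here, were not used. RSEM splits shared reads by estimate, so near-identical and overlapping genes are uncertain.

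Expected counts were rounded. Genes were kept by filterByExpr (minimum count 10, total 15), leaving 18218, or 18698 without the 3 libraries. One edgeR 4.0.16 quasi-likelihood fit with TMM factors held 77 replicates in 11 groups, and p was adjusted by Benjamini-Hochberg over all genes tested. CPM are TMM-scaled. Nothing states that replicates are separate mice beyond the tags in their names, so p-values rest on the spread between samples. It was estimated over all 77 replicates and not over the compared groups alone. A fit of only the compared groups called 0 genes. Replicate numbers pair nothing: same-numbered replicates had correlations of -0.162 to 0.075. No 2 libraries agreed within counting noise (closest pair, median chi-square per gene of 3.30).

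Named genes were the 12 largest rises and 12 largest falls among called genes averaging 1 CPM or more in the higher group, leaving out clone and segment symbols, with and without the 3 libraries. To these were added genes called in every fit without 1 replicate, up to 4 members of each list described by smallest p, the sex-linked and myosin genes, and the 5 lowest p of the F and M difference. Ppp2r1a, Trappc9, Kbtbd4, Mapk14, Scaf1, Fam160b2, Hnrnpm, Mlph, Prrg4, Sytl3, Gm4285, Krt5, Akap2 and Rps27 were named after their values were seen. Members and lists were chosen with earlier results of these data known. Only the main edgeR fit of the F contrast was tested on simulated data with known changes, which had no outlying libraries built in. It recovered 28.4% of 1.5-fold, 71.6% of 2-fold and 93.9% of 4-fold changes at an adjusted p under 0.05. Alternatives included DESeq2 1.42.0 and limma 3.58.1; those without the 5 libraries that stand apart, without the 2 with the suffix, and those on the fit without the 3 libraries were added after the data were seen. Differences in genes of a few CPM are imprecise at these depths.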

Additional observations from a re-analysis of the deposited data

Results flagged for a closer look

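Of 62 groups of values examined, 13 had a replicate far from the others. The groups come from the same replicates and many of their genes were named for their values, so this count was not set against chance. Replicate 4 at 12 months was highest for the mitochondrial share, at 46.5% with the next at 23%, and for mt-Rnr1, at 32400 CPM with the next at 2930 CPM. Replicate 5 at 12 months had a keratinocyte marker sum of 3430 CPM, with the next at 61.1 CPM. Replicate 4 at 6 months was highest for Gpd2 at 57.5 CPM, Myh4 at 6150 CPM, the fast 2B marker sum at 32600 CPM and the keratinocyte marker sum at 97.4 CPM, where the next replicates had 15.2, 598, 18200 and 6.2 CPM. Replicate 1 at 12 months, a library with Y transcripts, was highest for Gpd2 at 16.1 CPM, Kbtbd2 at 19.6 CPM and Myh4 at 404 CPM. Replicate 3 at 6 months, also with Y transcripts, was highest for Lmo1 at 4.92 CPM and lowest for Tcof1 at 15.3 CPM. Rasd2 was lowest in replicate 2 at 12 months, at 0.16 CPM with the next at 1.49 CPM.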

How the results depend on the processing

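The 42 called genes kept their sign in every fit in which they were tested, and DESeq2 called all 42. These fits share libraries with the one that chose the genes, so a kept sign is no separate support. The number called in F libraries did not hold: it was 12 without the 3 libraries against their label, 17 without those and 2 such M libraries, 11 with RLE factors or without the mitochondrial genome, 5 without a filter, 107 with DESeq2, 390 with limma-voom quality weights, 14 with the replicate block or the length and GC offsets, 10 with 1 library of the shared tag, 3 against a fold of 1.2, and 0 with only the compared groups, only the 4 groups of 6 and 12 months, only the 4 batch 1 F groups or without the 5 libraries that stand apart. Leaving out 1 replicate gave 2 to 761, with 2 without replicate 1, 6 without replicate 2, 283 without replicate 3 and 3 without replicate 4 at 6 months, and 13, 761, 59, 10, 15 and 97 without replicates 1 to 6 at 12 months. Without the 3 libraries the 12 calls became 53 with DESeq2, 3 with RLE factors, 2 with offsets, 0 with only the compared groups, 0 without the 5, and 0 to 619 leaving out 1 more. In M libraries 1794 became 3181 without libraries against their label and 2 with only the 4 groups. The F and M difference called 0, against 2 without the 5 libraries against their label, 86 with DESeq2, 49 with offsets, and 0 to 89 leaving out 1 replicate, the 89 without replicate 5 at 12 months. The mitochondrial share differed by 1.94 to 8.05 points leaving out 1 replicate. Leaving out 1 replicate, the log2 fold changes of the Y-linked Kdm5d and Uty ran from -1.58 to 9.16 and from -1.577 to 9.80, each highest without replicate 3 at 6 months, the library that held them at that age. The cause of the other shifts was not tested.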
